A study of Mus musculus with 12 samples.

Results

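The neuronal activity immediate early genes described here were Fos, Fosb, Junb, Egr1, Egr2, Egr4, Arc, Npas4, Nr4a1 and Dusp1. They were found by their symbols in the gene table of an RNA-seq study of intracerebral hemorrhage (ICH) in mice, where they take 10 of 54833 rows, and all 10 were among the 21495 genes with enough counts to be tested. The 12 libraries came from 4 groups of 3, all of male C57BL/6 wild-type mice: young sham and young ICH mice aged 8 to 10 weeks, and aged sham and aged ICH mice aged 20 to 22 months. ICH was made by injecting type IV collagenase, an enzyme that opens small vessels, into the caudate putamen, and sham mice received saline in its place. Tissue around the hematoma was taken 24 h later from that side of the brain, and each library pooled 2 or 3 mice, so the spread between libraries is one between pools. Reads counted on genes numbered 28410896 to 37785160 per library. The collagenase model damages vessels directly, and the tissue is a mixture of neurons, glia, vessels and blood cells. In such bulk tissue fewer neurons and less RNA per neuron cannot be told apart.

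Immediate early genes are transcribed rapidly when synaptic input raises calcium in a neuron, without the need for newly made protein. Calcium and MAP kinase signals reach them through factors already bound at their promoters, above all CREB at the cyclic AMP response element (CRE) and SRF at the CArG box. Most of their products are transcription factors that switch on later genes for synaptic proteins and secreted peptides, and in the striatum they are used as marks of recent input from cortex and dopamine neurons.

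RefSeq promoter windows of GRCm38.p6, each with 250 bases before and 50 after a start site, were used for 8 of the 10 genes, and Arc and Egr1 were not used here. The CRE core TGACG, searched on both strands, was found in a window of 8 of these 8 genes, while 20.8% of all 32851 windows hold it. The full CRE, TGACGTCA, which contains that core, was found in Dusp1 alone and in 1.79% of all windows. A CArG box was found for Egr2 alone (1.63% of all windows), the letters TATAAA for Fos and Junb (13.6%), and the AP-1 letters TGACTCA for 0 of the 8 (5.2%). Egr2 had 5 windows, some of them overlapping, and each other gene used had 1, whereas the shares are per window. Bases further upstream were not searched. Such matches describe letters and not occupied sites. The 250 bases before the start are shown for the 3 genes with a window that fell in young ICH (Npas4, Nr4a1 and Egr4), and for Fos and Dusp1, which were close to their sham levels in that comparison. Capitals mark the CRE core on either strand (TGACG or CGTCA), the full CRE in Dusp1 and TATAAA in Fos.
Npas4 (chr19:4989972-4990221, minus strand): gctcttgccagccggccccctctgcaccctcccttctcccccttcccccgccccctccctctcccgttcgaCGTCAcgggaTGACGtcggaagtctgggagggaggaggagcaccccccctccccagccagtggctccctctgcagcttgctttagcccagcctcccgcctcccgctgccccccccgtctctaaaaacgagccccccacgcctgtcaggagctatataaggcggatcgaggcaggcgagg
Nr4a1 (chr15:101266596-101266845, plus strand): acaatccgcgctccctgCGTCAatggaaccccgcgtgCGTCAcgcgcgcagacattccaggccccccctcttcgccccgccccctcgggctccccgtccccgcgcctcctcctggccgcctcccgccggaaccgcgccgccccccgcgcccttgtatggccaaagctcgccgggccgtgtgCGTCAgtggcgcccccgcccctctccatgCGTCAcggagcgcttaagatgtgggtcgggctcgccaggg
Egr4 (chr6:85513590-85513839, minus strand): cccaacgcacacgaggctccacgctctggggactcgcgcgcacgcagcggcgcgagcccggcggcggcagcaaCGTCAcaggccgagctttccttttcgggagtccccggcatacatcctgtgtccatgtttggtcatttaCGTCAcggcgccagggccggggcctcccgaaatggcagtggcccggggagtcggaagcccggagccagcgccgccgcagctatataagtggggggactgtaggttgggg
Fos (chr12:85473640-85473889, plus strand): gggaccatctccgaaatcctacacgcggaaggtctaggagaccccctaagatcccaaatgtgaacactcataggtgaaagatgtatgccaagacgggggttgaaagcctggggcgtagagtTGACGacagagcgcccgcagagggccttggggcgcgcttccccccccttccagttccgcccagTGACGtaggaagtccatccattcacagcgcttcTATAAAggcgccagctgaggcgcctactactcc
Dusp1 (chr17:26508473-26508722, minus strand): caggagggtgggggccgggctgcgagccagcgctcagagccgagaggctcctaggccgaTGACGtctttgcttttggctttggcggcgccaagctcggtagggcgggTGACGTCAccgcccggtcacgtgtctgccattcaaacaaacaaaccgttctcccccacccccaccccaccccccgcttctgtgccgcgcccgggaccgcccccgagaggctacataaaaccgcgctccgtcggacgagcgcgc
The stretch shown holds the core at 2 places in Npas4, 4 in Nr4a1, 2 in Egr4, 2 in Fos and 3 in Dusp1, so both the genes that fell and those that did not carried it.

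Levels between genes were compared on the deposited FPKM, which is scaled to gene length. In young sham mice the mean FPKM was highest for Egr1 at 65.9 ± 17.6, followed by Arc at 56.4 ± 35.0, Nr4a1 at 29.0 ± 12.5 and Junb at 19.9 ± 6.75 (SD, n = 3 each). Fos at 11.6 ± 5.37, Dusp1 at 11.6 ± 4.55 and Npas4 at 11.4 ± 4.13 lay close together, above Egr4 at 7.28 ± 2.68. Fosb at 2.97 ± 0.464 and Egr2 at 2.77 ± 0.877 were lowest. In this order the ranges of neighbours overlapped except between Egr4 and Fosb. In aged ICH mice Arc, at 34.8 ± 5.4, Egr1, at 32.4 ± 8.36, and Junb, at 28.1 ± 4.43, were the 3 highest, with overlapping ranges, and Egr2, at 2.29 ± 0.442, was again the lowest.

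Libraries of one group stood apart in these genes, and this bears on every comparison with young sham mice. Young sham replicate 3 held the highest of the 3 young sham values for 10 of 10 genes, whereas it was highest for 32.8% of all genes tested, and young sham replicate 1 held the lowest for 9 of 10. The coefficient of variation within young sham had a median of 36.1% over the 10 genes and of 10.6% over all genes tested. In young ICH these medians were 17.6 and 13.2%, in aged sham 11.6 and 10.2%, and in aged ICH 22.2 and 10.8%. Within young ICH, replicate 1 was lowest for 9 genes (30.5% of all genes tested). Within aged ICH, replicate 2 was highest for 9 genes (34.8% of all genes tested) and replicate 3 lowest for 10 (31%). Levels below are CPM, read counts scaled to the TMM-normalised library size, and the plot of levels by library shows all of them.

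**Figure D1:**
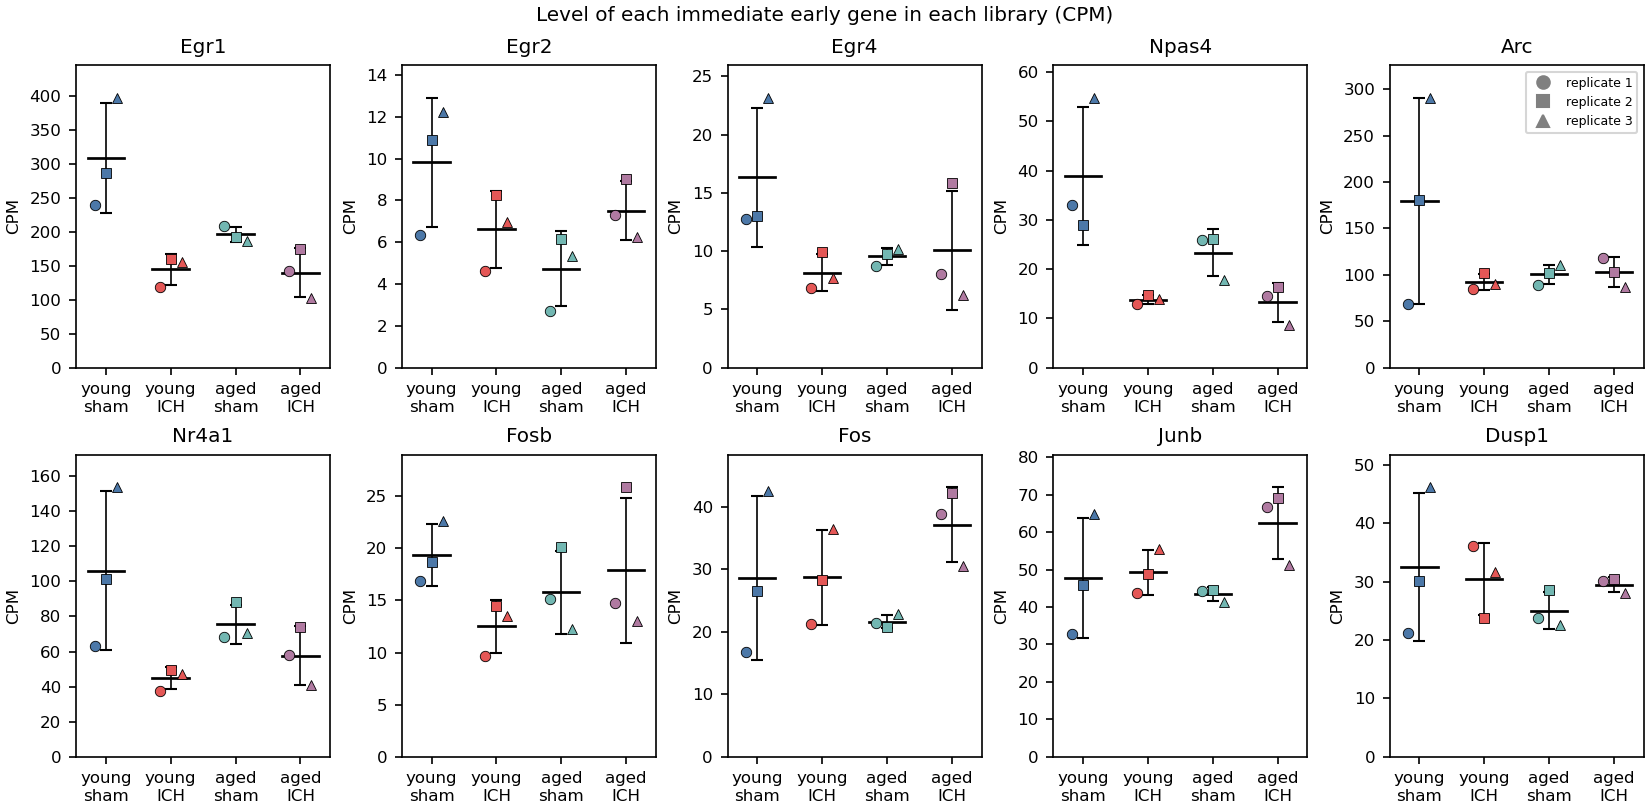
CPM of each gene (vertical axis, from 0) in the 4 groups (horizontal axis). Symbols are the 3 libraries of a group, the horizontal bar is their mean and the vertical bar the SD, and young sham replicate 3 (blue triangle) is the highest of its group in all 10 panels.

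The first comparison asked how the genes stood 24 h after ICH in young mice. Npas4, Egr1, Nr4a1 and Egr4 fell, by 2.01 to 2.82 times, and Arc and Fosb were lower by the DEG criteria of the study (FC > 1.5 or < 0.67 with unadjusted *P* under 0.05) without passing the Benjamini-Hochberg adjustment over all genes. Fos, Junb and Dusp1 had differences near 0, and Egr2 lay between. Thus 6 of 10 genes met the criteria downward, where 3.49% of all genes tested did, and 0 upward, where 8.66% did, and 4 of 10 passed an adjusted *P* of 0.05 downward, where 9.23% did. The log2FC was below 0 for 8 genes and above 0 for 2, against 47.3 and 52.7% of all genes tested, and its median was −0.80 (−0.47 without young sham replicate 3), that of all genes tested being 0.02.

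Npas4 (chromosome 19, 4984355 to 4990316, minus strand, GRCm38) encodes a neuron-specific transcription factor that responds to calcium. It was at 33.0, 28.9 and 54.8 CPM in the young sham libraries and at 12.8, 14.7 and 13.9 CPM in the young ICH libraries. The groups did not overlap, and the log2FC was −1.50 ± 0.27 (SE, edgeR, adjusted *P* = 0.0040), the largest fall of the 10. Egr1 (chromosome 18, 34859823 to 34864984, plus strand), a zinc-finger factor with wide expression in forebrain neurons, was at 239.8, 287 and 398 CPM in young sham and at 119, 160.8 and 155 CPM in young ICH. Every young ICH value was under every young sham value, with a log2FC of −1.09 ± 0.21 (SE, edgeR, adjusted *P* = 0.00514). Egr4 (chromosome 6, 85511121 to 85513589, minus strand), of the same family, went from 12.8, 13 and 23.2 to 6.79, 9.89 and 7.72 CPM. Its log2FC of −1.0 ± 0.32 (SE, edgeR, adjusted *P* = 0.0484) was just past the threshold, again without overlap. It did not pass with a replicate block or with upper-quartile factors, where 3 of the 10 genes passed downward. That number was 4 with DESeq2 and 5 with no filter on low counts. It was also 3 when aged ICH replicate 1, any aged sham library, any young ICH library, or young sham replicate 2 or 3 was left out. Without aged ICH replicate 3 it was 4, and without aged ICH replicate 2 or young sham replicate 1 it was 5. Egr2 (chromosome 10, 67535475 to 67542188, plus strand) was at 6.33, 10.9 and 12.2 CPM in young sham and at 4.61, 8.25 and 6.96 CPM in young ICH. These values overlapped, and the log2FC was −0.57 ± 0.32 (SE, edgeR, adjusted *P* = 0.238).

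Nr4a1 (chromosome 15, 101254269 to 101274795, plus strand), an orphan nuclear receptor, was at 63.2, 101 and 154 CPM in young sham and at 37.8, 49.3 and 47.4 CPM in young ICH. It fell without overlap, with a log2FC of −1.24 ± 0.29 (SE, edgeR, adjusted *P* = 0.0122). Arc (chromosome 15, 74669083 to 74672570, minus strand) is an effector rather than a transcription factor and takes part in the internalisation of AMPA receptors at synapses. Its young sham values of 68.7, 180.6 and 290.7 CPM were the most widely spread of the 10 genes, and its young ICH values of 85, 102 and 89.9 CPM lay within their range. The log2FC of −0.96 ± 0.36 (SE, edgeR, unadjusted *P* = 0.0206, adjusted *P* = 0.0829) met the DEG criteria only.

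Fos, Fosb and Junb encode subunits of the AP-1 transcription factor, Fos and Fosb pairing with Jun proteins such as Junb. Fosb (chromosome 7, 19302696 to 19310051, minus strand) was at 16.8, 18.7 and 22.6 CPM in young sham and at 9.66, 14.4 and 13.5 CPM in young ICH. Its groups did not overlap, and its log2FC was −0.63 ± 0.26 (SE, edgeR, unadjusted *P* = 0.0344, adjusted *P* = 0.117). Fos (chromosome 12, 85473890 to 85477273, plus strand) was at 16.7, 26.4 and 42.6 CPM in young sham and at 21.2, 28.3 and 36.4 CPM in young ICH, so that the second range lay inside the first. Its log2FC was 0.01 with a 95% confidence interval of −0.60 to 0.62. Junb (chromosome 8, 84974484 to 84978718, minus strand) was at 32.9, 45.8 and 64.8 and at 43.6, 48.7 and 55.5 CPM, with a log2FC of 0.04 and an interval of −0.39 to 0.48. Dusp1 (chromosome 17, 26505590 to 26562128, minus strand), a phosphatase that switches MAP kinases off again, was at 21.2, 30.1 and 46.2 and at 36.0, 23.8 and 31.6 CPM, with a log2FC of −0.09 and an interval of −0.60 to 0.41. These intervals leave room for changes in either direction. Junb and Dusp1 overlap other genes on the opposite strand, Junb with Prdx2 and Dusp1 with Ergic1 among others, and the sources used here do not give whether counting used the strand. Of the 10 genes, 5 were lower in every young ICH library than in every young sham library, against 16.5% of all genes tested.

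When young sham replicate 3 was left out, Npas4 (log2FC −1.17, edgeR, adjusted *P* = 0.0130), Egr1 (−0.86, adjusted *P* = 0.0186) and Nr4a1 (−0.88, adjusted *P* = 0.0441) still fell, while Egr4 (−0.67, unadjusted *P* = 0.0573), Fosb (−0.50, unadjusted *P* = 0.115) and Arc (−0.43, unadjusted *P* = 0.175) no longer met the DEG criteria. The number that met them was thus 3, and it was 4 when young ICH replicate 1 was left out. Leaving out young sham replicate 1 instead, the log2FC of Arc was −1.35 (edgeR, adjusted *P* = 0.0039), so a single library decided its call.

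**Figure D2:**
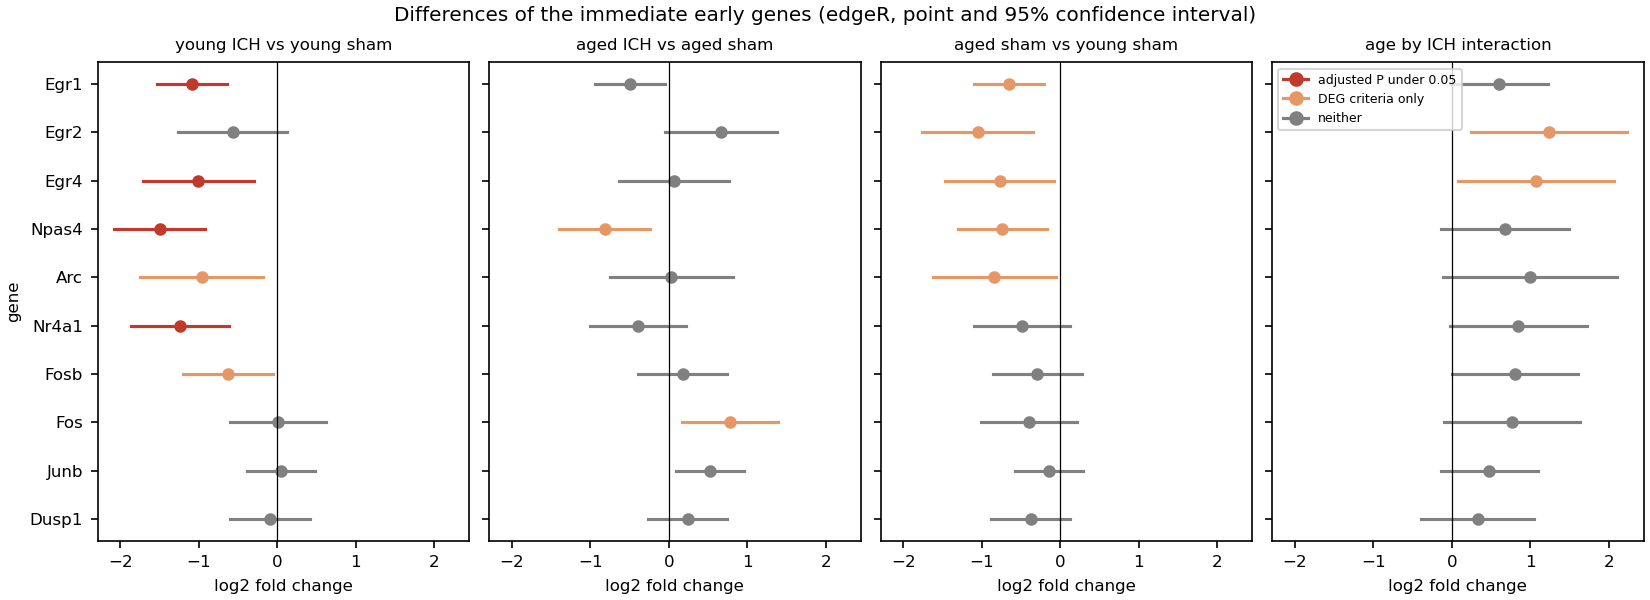
Log2 fold change (horizontal axis) of each gene (vertical axis) in 3 comparisons and in the age by ICH interaction, with points for the edgeR estimate and lines for its 95% confidence interval. Dark red marks the 4 genes with an adjusted P under 0.05, all in young ICH vs. young sham, orange the DEG criteria alone and grey neither, and all 10 points lie to the left of 0 between the sham groups and to the right of 0 in the interaction.

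The same comparison in aged mice gave a mixed picture. Npas4 was lower and Fos higher by the DEG criteria, and 2 more genes, Junb (higher) and Egr1 (lower), had an unadjusted *P* under 0.05 without reaching the FC criterion. The number of genes that met the criteria was 1 of 10 downward and 1 of 10 upward, where 2.82% and 7.24% of all genes tested did. With edgeR 0 of 10 passed an adjusted *P* of 0.05, 4 of 10 had an unadjusted *P* under 0.05, and with DESeq2 2 passed the adjustment, Npas4 and Fos. These also passed with edgeR and no filter on low counts (adjusted *P* = 0.0275 for Npas4 and 0.0435 for Fos), and in an edgeR fit of the aged groups alone Fos (adjusted *P* = 0.0165) and Junb (0.0284) did. Across all genes 6.15% passed downward and 7% upward with edgeR, and 6216 of 21495 had an unadjusted *P* under 0.05. With DESeq2 1811 of 21485 genes passed the adjustment downward and 1764 upward. With no filter 1101 of 39887 passed downward and 1341 upward, and in the aged groups alone 1132 of 20661 downward and 1349 upward. The log2FC was above 0 for 7 of the 10 genes and below 0 for 3, against 50.3 and 49.7% of all genes tested, with a median of 0.12 that turned to −0.08 without aged ICH replicate 2 and was 0.30 without aged ICH replicate 3.

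Npas4 was at 26.0, 26.1 and 17.8 CPM in aged sham and at 14.5, 16.4 and 8.74 CPM in aged ICH. The ranges did not overlap, and the log2FC was −0.82 ± 0.26 (SE, edgeR, unadjusted *P* = 0.0098, adjusted *P* = 0.0639). Egr1 was at 209, 193 and 187 CPM in aged sham and at 143, 174 and 103 CPM in aged ICH, lower in each library, with a log2FC of −0.49 ± 0.20 (SE, edgeR, adjusted *P* = 0.138). Npas4 and Egr1 are the 2 genes that had no overlap downward at both ages. Downward separation in aged mice was found in 17.3% of all genes tested.

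Fos was at 21.4, 20.7 and 22.8 CPM in aged sham, a narrow range, and at 38.8, 42.1 and 30.4 CPM in aged ICH. The log2FC was 0.78 ± 0.28 (SE, edgeR, unadjusted *P* = 0.0175, adjusted *P* = 0.0914). Its partner Junb was at 44.4, 44.5 and 41.2 and at 66.8, 69.2 and 51.3 CPM, with a log2FC of 0.53 ± 0.20 (SE, edgeR, adjusted *P* = 0.104). For both, every aged ICH library lay above every aged sham library, as it also did for Egr2, which was at 2.71, 6.14 and 5.33 and at 7.28, 9.04 and 6.22 CPM (log2FC 0.67, edgeR, adjusted *P* = 0.201). Such separation upward was found in 3 of 10 genes and in 17.8% of all genes tested.

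The remaining 5 genes overlapped between the aged groups. Egr4 was at 8.71, 9.78 and 10.2 CPM in aged sham and at 8.06, 15.8 and 6.25 CPM in aged ICH, where replicate 2 stood far above the others. Fosb was at 15.1, 20.1 and 12.2 and at 14.7, 25.9 and 13.1 CPM, with the same library highest. Arc was at 89.1, 102 and 110.1 and at 118, 103 and 86.8 CPM. These 3 genes had log2FC values of 0.07, 0.18 and 0.04. Nr4a1, at 68.0, 88.3 and 70.6 and at 57.8, 74.2 and 40.9 CPM, gave a log2FC of −0.39 (edgeR, adjusted *P* = 0.394), whereas Dusp1, at 23.7, 28.6 and 22.6 and at 30.0, 30.4 and 28 CPM, had one of 0.24.

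The calls in aged mice also moved with young sham libraries. All groups share one estimate of the spread, the number of genes tested also changed, and the cause was not tested. With young sham replicate 3 left out, Fos (edgeR, adjusted *P* = 0.0385), Junb (0.0411) and Npas4 (0.0357) passed the adjustment with log2FC values that hardly moved (0.78, 0.53 and −0.82). When aged ICH replicate 2 was left out, Fos no longer met the DEG criteria (log2FC 0.68, edgeR, unadjusted *P* = 0.0537) and Junb was at 0.45 (edgeR, unadjusted *P* = 0.0695), while Npas4 passed the adjustment (−1.0, edgeR, adjusted *P* = 0.0461).

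Between the sham groups, which asked for the difference made by age without hemorrhage, the log2FC was below 0 for 10 of 10 genes, where 48.3% of all genes tested were below 0. Its median was −0.57, and −0.24 without young sham replicate 3. The sign for Fos and Junb turned in fits with a single library left out. Egr2 (log2FC −1.05 ± 0.32), Egr1 (−0.65 ± 0.20), Npas4 (−0.74 ± 0.26), Egr4 (−0.77 ± 0.32) and Arc (−0.84 ± 0.36; SE in each case) met the DEG criteria, 5 of 10 genes against 0.898% of all genes tested downward. Their adjusted *P* ranged from 0.247 to 0.375 with edgeR, so 0 of 10 passed the adjustment with edgeR or DESeq2, while 5 of 10 had an unadjusted *P* under 0.05 with either tool. Among all genes tested 0.014% passed it downward and 0.0884% upward with edgeR, and with DESeq2 141 of 21485 genes passed downward and 148 upward. An unadjusted *P* under 0.05 was found in 2653 of 21495 genes with edgeR and in 2544 of 21485 with DESeq2. Egr1, Egr2, Egr4 and Npas4 were lower in each aged sham library than in each young sham library, against 11.2% of all genes tested. Without young sham replicate 3 only Egr2 met the criteria (log2FC −0.86), and without young sham replicate 1 the number was 8. It was 3, 3 and 2 when aged sham replicate 1, 2 or 3 was left out. Young sham is also the control of young ICH and enters the interaction, so these results share 3 libraries and are not independent of each other.

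Between the ICH groups the genes were close to each other. The log2FC of aged ICH against young ICH lay between −0.06 (Npas4) and 0.51 (Fosb), all 10 genes overlapped (6.9% of all genes tested were higher and 6.42% lower without overlap), and 0 of 10 met the DEG criteria or had an unadjusted *P* under 0.05 with edgeR or with DESeq2, where 2.21% of all genes tested met the criteria upward and 1.3% downward. An adjusted *P* under 0.05 was reached upward by 0.0372% and downward by 0.0186% of all genes tested with edgeR. With DESeq2 it was reached upward by 87 and downward by 105 of 21485 genes. An unadjusted *P* under 0.05 was found in 2050 of 21495 genes with edgeR and in 1921 of 21485 with DESeq2. The log2FC was above 0 for 7 of the 10 genes and below 0 for 3, against 49 and 51% of all genes tested. The intervals were wide, for Fosb −0.06 to 1.09 and for Npas4 −0.65 to 0.52.

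The interaction tested whether the ages responded differently, as the log2FC of ICH in aged mice less the log2FC of ICH in young mice. It was above 0 for 10 of 10 genes (48.9% of all genes tested), from 0.33 for Dusp1 to 1.24 for Egr2, with a median of 0.79. Without young sham replicate 3 the median was 0.42 and Dusp1 was at −0.010. By the DEG criteria 2 of 10 genes were called, Egr2 (1.24 ± 0.46, SE) and Egr4 (1.08 ± 0.45), where 0.484% of all genes tested were called upward. The unadjusted *P* was 0.0193 for Egr2 and 0.0359 for Egr4, and the adjusted *P* 0.99991 for each (edgeR). Across all 21495 genes 0 passed the adjustment with edgeR, with 606 at an unadjusted *P* under 0.05, and 1 passed with DESeq2. DESeq2 called 6 of the 10 genes at an unadjusted *P*, and without young sham replicate 3 edgeR called 0 of 10, with 0 at an unadjusted *P* under 0.05.

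A list of 26 other rapid response genes was counted beside the 10, and the difference between the lists was not tested. In young ICH 14 of them rose and 3 fell (edgeR, adjusted *P* under 0.05), where 9.89% of all genes tested rose and 9.23% fell, and in aged ICH 16 rose and 1 fell, where 7% rose and 6.15% fell. The shares that fell were thus near those of all genes tested. The median log2FC of the list was 0.62 in young and 0.70 in aged mice, beside 0.02 and 0.00 for all genes tested. Maff, a small Maf factor, had log2FC values of 1.63 and 1.70, Zfp36, which destabilises cytokine mRNAs, of 1.72 and 1.39, and the stress factor Atf3 of 2.64 (edgeR, adjusted *P* = 0.00147) and 2.10 (edgeR, adjusted *P* = 0.00505). Maff was at 2.04, 2.19 and 2.54 CPM in young sham and at 7.14, 6.46 and 7.34 CPM in young ICH, at 3.21, 2.93 and 4.34 CPM in aged sham and at 11.6, 10.7 and 11.7 CPM in aged ICH. Cyr61, a secreted matrix protein, rose by 2.06 in young mice, and the stress genes Gadd45b and Gadd45g rose by 1.17 and 1.31 in aged mice.

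The 3 members of that list that fell in young ICH were Egr3 (log2FC −1.18, edgeR, adjusted *P* = 0.00198), Nr4a2 (−1.85, adjusted *P* = 0.00755) and Nr4a3 (−0.79, adjusted *P* = 0.0469), named after their values were seen. They are paralogs of Egr1 and Nr4a1. Egr3 was at 201, 212 and 329.6 CPM in young sham and at 92.7, 124 and 112 CPM in young ICH, with young sham replicate 3 again the highest. It was also the single member that fell in aged ICH (−0.62, edgeR, adjusted *P* = 0.0356), from 177, 148 and 141 to 104, 104 and 94.8 CPM. Without young sham replicate 3, 15 members of the list rose and 2 fell in young ICH. Between the sham groups Egr3 (log2FC −0.67) was lower and Maff (0.63), Ier3 (0.72), Atf3 (1.09) and Cyr61 (0.81, named after its value was seen) were higher by the DEG criteria, which 0.898% of all genes tested met downward and 2.82% upward. With edgeR 0 of the 26 passed the adjustment there and 7 had an unadjusted *P* under 0.05, as did 2653 of 21495 genes. With DESeq2 1 passed in each direction, where 148 of 21485 genes passed upward and 141 downward.

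**Figure D3:**
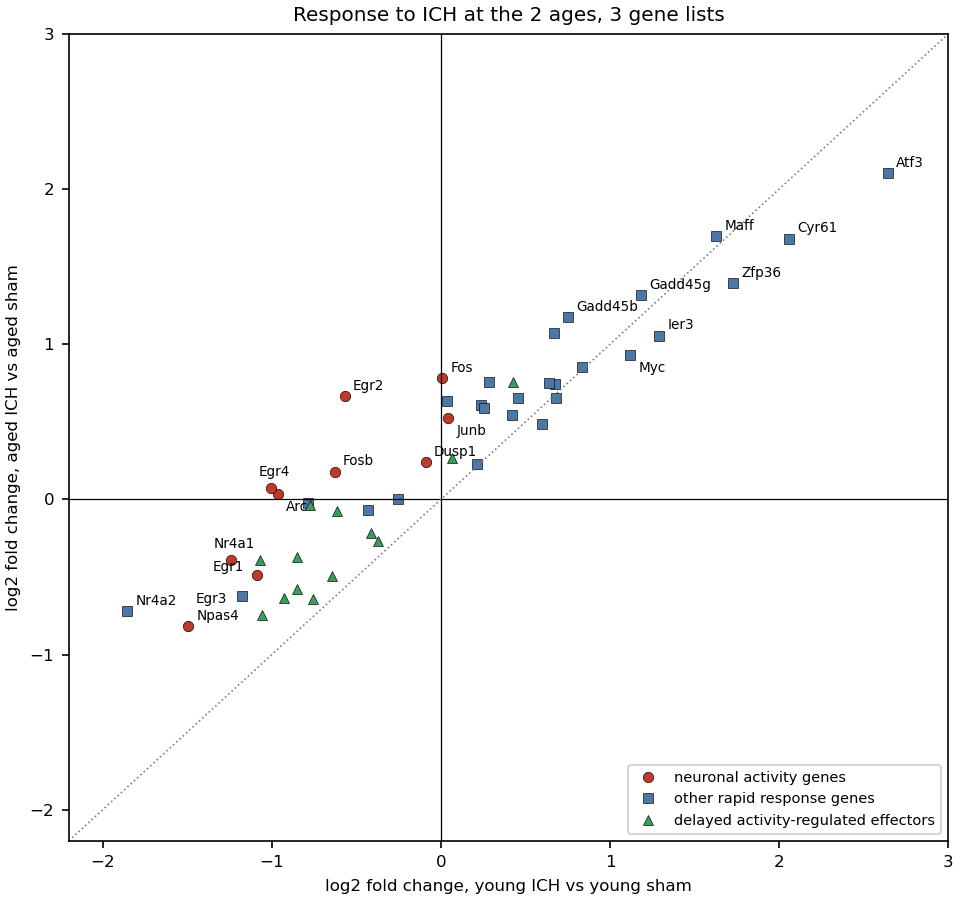
Log2 fold change in aged ICH vs. aged sham (vertical axis) against that in young ICH vs. young sham (horizontal axis) for 3 gene lists, with a dotted line where both are equal. The 10 neuronal activity genes (red circles) lie above the line, 8 of them left of 0 on the horizontal axis, while 21 of 26 other rapid response genes (blue squares) are above 0 at both ages.

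A list of 13 activity-regulated effectors was set beside the immediate early genes, and 9 of the 13 fell in young ICH, where 9.23% of all genes tested fell. Whether products of the immediate early genes act on these effectors was not tested. In aged ICH 5 fell and 1 rose, against 6.15% and 7% of all genes tested. Homer1, a scaffold of the postsynaptic density, was at 329, 358 and 393 CPM in young sham, at 166, 203 and 198 CPM in young ICH, at 278, 244 and 261 CPM in aged sham and at 149, 199 and 155 CPM in aged ICH. The sham and ICH libraries did not overlap at either age, with log2FC values of −0.93 (edgeR, adjusted *P* = 0.00137) and −0.64 (edgeR, adjusted *P* = 0.00841). Vgf, a neuropeptide precursor, fell by 0.85 on the log2 scale in young mice, Inhba, an activin subunit, by 1.07 and Pcsk1, a prohormone convertase, by 1.06. In aged mice Pcsk1 fell by 0.74, the granin Scg2 fell by 0.64, and Ptgs2, which encodes cyclooxygenase-2, was the member that rose (0.75, edgeR, adjusted *P* = 0.0277). The median log2FC of the list was −0.76 in young and −0.37 in aged mice. Without young sham replicate 3 the number that fell in young ICH was 7, and in aged ICH 4. Between the sham groups Nptx2, a neuronal pentraxin, met the DEG criteria (−0.67). With edgeR 0 of 13 passed the adjustment and 4 had an unadjusted *P* under 0.05, as did 2653 of 21495 genes. With DESeq2 2 passed the adjustment, where 148 of 21485 genes passed upward and 141 downward.

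Regulators of the same pathway were counted as well. Of 9 other MAP kinase phosphatases, Dusp14 fell in young ICH (log2FC −0.61, edgeR, adjusted *P* = 0.0118) and Dusp5 rose in aged ICH (0.71, edgeR, adjusted *P* = 0.0486), and Dusp6 met the DEG criteria in the interaction (0.60, edgeR, unadjusted *P* = 0.0399, adjusted *P* = 0.99991). A single phosphatase called at each age is near the share of all genes tested that fell in young ICH (9.23%) and of those that rose in aged ICH (7%). Of 20 upstream kinases and factors, 1 rose and 3 fell in young ICH, where 9.89 and 9.23% of all genes tested did, and 4 rose and 1 fell in aged ICH, where 7 and 6.15% did. Those past the FC criterion were the ternary complex factor Elk3, with a log2FC of 0.70 in young ICH, and Camk4, a calcium-dependent kinase that phosphorylates CREB, with −0.77 in young ICH and −0.67 in aged ICH (edgeR, adjusted *P* = 0.0156 and 0.0352).

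By a fixed rule the genes with the pattern most like the mean of the 10 were named, by Pearson's r of log2 CPM over the 12 libraries. Dusp6, a phosphatase of the ERK kinases, came first at r = 0.953, followed by Nab2, a co-repressor that binds Egr proteins, at 0.897. The other 8 of the first 10 were 1700016P03Rik (0.877), Wdr75 (0.839), Tmem39b (0.837), Klf10 (0.825), Tmem11 (0.797), Ldha (0.785), Gm15411 (0.785) and Gm14584 (0.779). Dusp6 was at 46.9, 64.9 and 86.7 CPM in young sham and at 40.4, 50.4 and 44.8 CPM in young ICH, at 47.9, 48.7 and 52.3 CPM in aged sham and at 55.1, 57.2 and 42.3 CPM in aged ICH. Its highest library was young sham replicate 3, as it was for 8 of the 10 genes, Fosb and Junb being highest in aged ICH replicate 2. These values describe 12 libraries that share 4 groups, and no test was made of them.

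Markers of the cell types were set beside these results. The 10 pan-neuronal markers were below 0 in 10 of 10 cases in both ICH comparisons, with a median log2FC of −0.23 in young and −0.15 in aged mice. Of these 3 fell in young ICH, among them Syt1 (−0.65), where 9.23% of all genes tested fell (6.15% in aged ICH). In aged ICH 6216 of 21495 genes had an unadjusted *P* under 0.05 with edgeR, among them 1 of the 10 markers. There 0 of the 10 markers passed the adjustment with edgeR, and 1 passed with DESeq2. Their summed level was 8085, 9396 and 9339 CPM in young sham, 7365, 7621 and 5857 CPM in young ICH, 8492, 7748 and 7869 CPM in aged sham and 6816, 6375 and 7057 CPM in aged ICH, with Snap25 the most abundant. Every ICH library was thus lower than every sham library of its age.

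The 13 markers of striatal projection neurons, the main neurons of the tissue sampled, were below 0 in 13 of 13 cases at both ages, with a median log2FC of −0.94 and −1.10. Bcl11b and Pde10a met the DEG criteria at each age, where 3.49% of all genes tested did so downward in young ICH and 2.82% in aged ICH. With edgeR 0 passed the adjustment, where 9.23% of all genes tested fell in young ICH and 6.15% in aged ICH. At each age 2 had an unadjusted *P* under 0.05 with edgeR, as did 7132 of 21495 genes in young ICH and 6216 in aged ICH. With DESeq2 0 of the 13 passed the adjustment. The summed level varied widely within groups, at 4119, 2650 and 2424 CPM in young sham, 1751, 822 and 2387 CPM in young ICH, 3181, 3645 and 2116 CPM in aged sham and 561, 2659 and 1119 CPM in aged ICH, with Pde10a the most abundant. The 8 markers of cortical neurons summed to 1243, 1600.4 and 1581 CPM in young sham, 1213, 1616 and 858 CPM in young ICH, 1311, 1064 and 1210.1 CPM in aged sham and 1252, 936 and 1330 CPM in aged ICH, with Slc17a7 the most abundant and 0 of 8 at an unadjusted *P* under 0.05 with edgeR in either ICH comparison (1 in young ICH with DESeq2). All markers of both lists had counts in these libraries, which hold no other tissue to compare them with. Young sham replicate 1, lowest in 9 of the 10 immediate early genes, had the highest striatal and lowest cortical sum of its group. Young ICH replicate 2, highest in 7 of the 10, had the lowest striatal and highest cortical sum, and aged ICH replicate 2, highest in 9 of the 10, had the highest striatal and lowest cortical sum. Their part in the result was not tested.

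**Figure D4:**
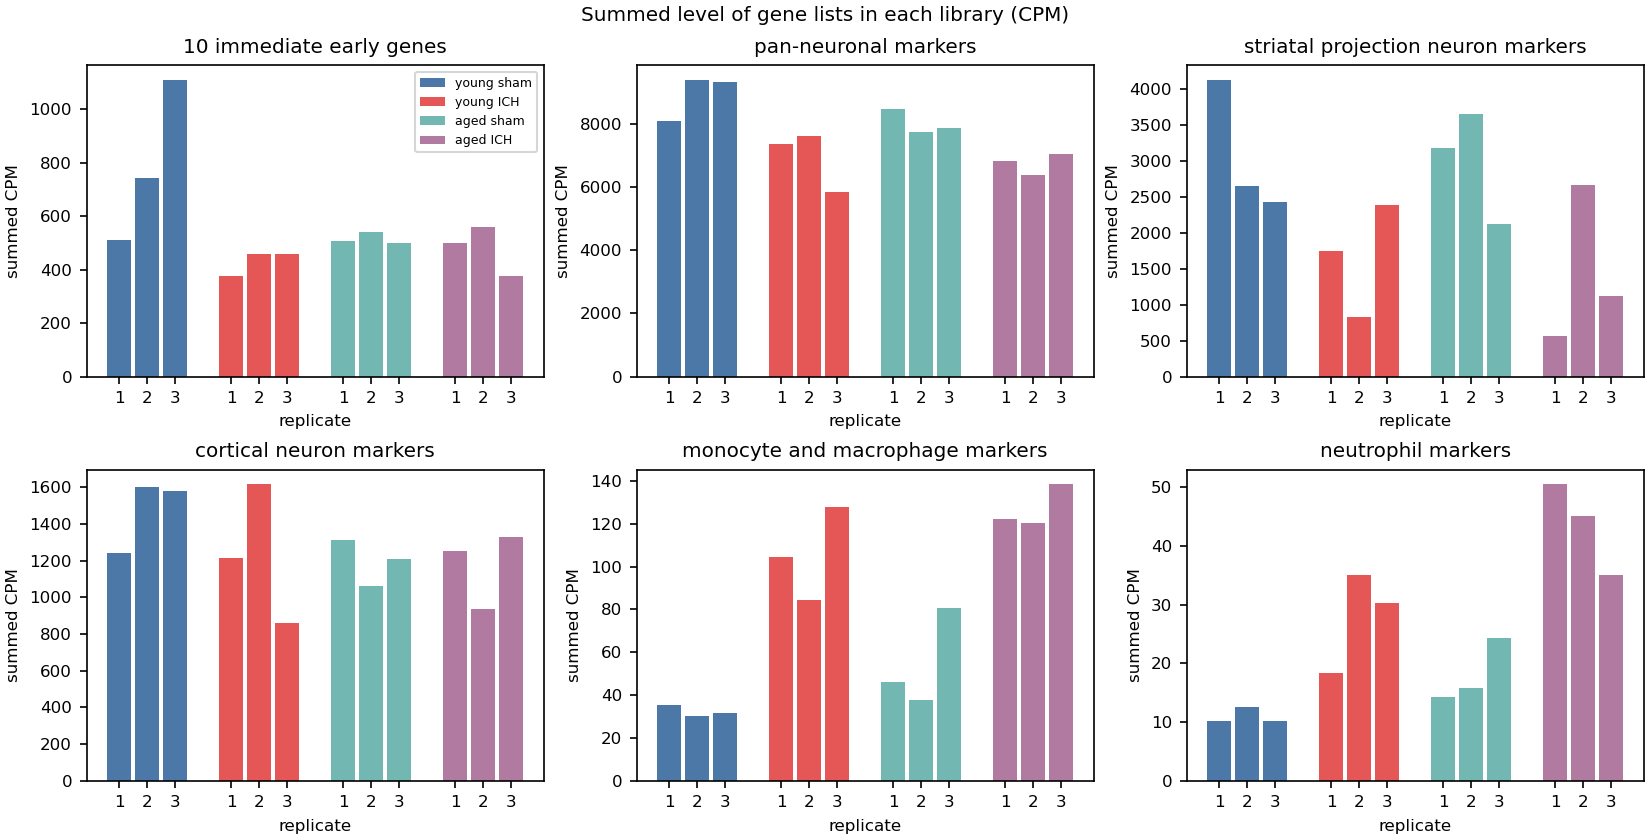
Summed CPM (vertical axes, from 0) of the 10 immediate early genes and of 5 marker lists in each library (bars, numbered by replicate, coloured by group). The sum of the 10 genes runs from 375 CPM in aged ICH replicate 3 to 1109 CPM in young sham replicate 3. The pan-neuronal sums are lower in each ICH library than in the sham libraries of the same age. The striatal sums run from 822 to 2387 CPM in young ICH and from 561 to 2659 CPM in aged ICH. Their spread is wider in ICH than in sham in aged mice only (SD 1086 and 784 CPM, against 787 and 920 CPM in young mice).

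The summed neutrophil markers, and the summed monocyte and macrophage markers, were higher in every ICH library than in the sham libraries of the same age. Of 10 neutrophil markers 6 were tested and 5 rose at each age, and 5 and 4 of 8 monocyte and macrophage markers rose in young and aged ICH. For these and the lists that follow, 9.89% of all genes tested rose and 9.23% fell in young ICH, and 7% rose and 6.15% fell in aged ICH. The neutrophil sums were 10.3, 12.6 and 10.2 CPM in young sham, 18.4, 35.1 and 30.2 CPM in young ICH, 14.3, 15.8 and 24.4 CPM in aged sham and 50.5, 45.1 and 35.0 CPM in aged ICH. Csf3r was the most abundant, and 6 of the 10 averaged under 1 CPM. The monocyte and macrophage sums were 35.6, 30.4 and 31.6 CPM in young sham, 105, 84.4 and 128 CPM in young ICH, 46.2, 37.7 and 80.5 CPM in aged sham and 122, 120.2 and 138 CPM in aged ICH, with Lyz2 the most abundant. Endothelial markers rose in 5 of 7 cases in young and 3 of 7 in aged ICH, and astrocyte markers in 3 and 2 of 7, with 1 astrocyte marker falling in aged ICH. Of 7 microglia markers 2 fell at each age, P2ry12 and Siglech. Of 5 red blood cell genes tested 3 rose in young ICH, Hba-a1, Hba-a2 and Hbb-bs, and in aged ICH 1 met the DEG criteria. The 6 choroid plexus markers summed to 8.25 CPM in young ICH replicate 2 and to 3958 CPM in young ICH replicate 3, mostly Ttr, and were also high in aged ICH replicates 1 (1517 CPM) and 2 (1919 CPM). The part of any of these lists in the immediate early gene results was not tested.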

How the data were processed

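RNA-seq was made from 12 samples of tissue around the hematoma, 3 for each of 4 groups named by the labels. The authors aligned paired reads to GRCm38.p6 (HISAT2), assigned them to genes (featureCounts) and deposited raw counts and FPKM (counts scaled by gene length and by the reads counted on genes). Strand setting and the treatment of reads with several alignments are not given in the sources used here. The table has 54833 genes, of which 14946 had no count, and 387 rows carry no gene symbol.

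Counts were tested here with edgeR 4.0.16 (limma 3.58.1, R 4.3.3) by the quasi-likelihood test, in a single model of the 12 samples with TMM factors, for the 21495 genes kept by filterByExpr (minimum count 10). DEGs had FC > 1.5 or < 0.67 and unadjusted *P* under 0.05, the study's criteria, and Benjamini-Hochberg adjustment ran over all genes tested. The words rose and fell are kept for an adjusted *P* under 0.05. DESeq2 (run here as 1.42.0, the study having used an earlier version), other normalizations, no filter, a replicate block, fits of the compared groups alone and leaving out each sample were alternatives. CPM used the TMM library sizes, and log2 CPM a prior count of 2. The depth of 28410896 to 37785160 counted reads and the spread between pools both bear on precision, and their shares were not compared. The script was tested on simulated data.

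All 10 genes are named. Genes of other lists are named where they are among the 4 with the smallest *P* that met the DEG criteria in a list and comparison, with exceptions stated. The members and lists were chosen with earlier results of these data known. The p-values measure the spread between pools of mice. Positions are from GENCODE M21 (54409 of the table's gene identifiers matched) and promoter windows from RefSeq. The result of 1 marker list is not reported here.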

Additional observations from a re-analysis of the deposited data

Results flagged for a closer look

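The responses to ICH of the 2 ages differed at an unadjusted *P* under 0.05 in the edgeR interaction for Egr2, with a difference of 1.24 ± 0.46 (SE, unadjusted *P* = 0.0193), and for Egr4, with a difference of 1.08 ± 0.45 (SE, unadjusted *P* = 0.0359). The adjusted *P* over all genes was 0.99991 for each. The log2FC of Egr2 was −0.57 in young mice, where the groups overlapped (edgeR, adjusted *P* = 0.238), and 0.67 in aged mice (edgeR, adjusted *P* = 0.201), where the lowest ICH library, at 6.22 CPM, lay just above the highest sham library, at 6.14 CPM. Neither met the DEG criteria. Egr4 had a log2FC of −1.0 in young and 0.07 in aged mice, and its interaction was 0.59 without aged ICH replicate 2. Without young sham replicate 3 the interaction of Egr2 was 1.05 (edgeR, unadjusted *P* = 0.0509) and that of Egr4 0.74 (edgeR, unadjusted *P* = 0.11), and neither met the DEG criteria. No test for a single outlying library was made in groups of 3.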

How the results depend on the processing

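Of the single-gene results for the 10 immediate early genes, 308 comparisons with another setting kept their direction and side of the threshold, 14 lost the call, 16 gained it and 2 reversed. With a library left out 527 kept both, 26 lost the call, 26 gained it and 21 reversed. With RLE size factors and with DESeq2 the log2FC of Fos in young ICH was −0.0042 and −0.0055 in place of 0.0066, that is near 0 in each case. The number of the 10 genes called higher in aged ICH was 2 with no filter on low counts, with DESeq2 and with a replicate block, and 0 at an adjusted *P* under 0.05, beside 1 as reported. At an adjusted *P* under 0.05 the number called lower was 0 in aged ICH (1 as reported) and 0 between the sham groups (5 as reported). In the interaction 2 genes were called, and 8 with no filter, 6 with DESeq2, 4 with the replicate block and 0 at an adjusted *P* under 0.05. Of all genes, 2612 were called in young ICH and 4110 at an adjusted *P* under 0.05. Between the sham groups 799 were called, 1269 with no filter and 22 at an adjusted *P* under 0.05, and between the ICH groups 756, 1280 and 12. In the interaction 336 were called, 787 with no filter and 0 at an adjusted *P* under 0.05. The cause was not tested.

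With single libraries left out, 3 (without young sham replicate 3) to 7 (without young sham replicate 1) of the 10 genes were called lower in young ICH, 0 to 2 higher and 1 to 2 lower in aged ICH, 1 to 8 lower between the sham groups, 0 to 1 higher between the ICH groups, and 0 to 8 higher in the interaction. All genes called numbered 2141 to 3173 in young ICH, 1647 to 2796 in aged ICH, 696 to 999 between the sham groups, 632 to 1042 between the ICH groups and 314 to 609 in the interaction. The sign turned in the following cases. In young ICH the log2FC ranged from −0.27 to 0.41 for Fos, −0.17 to 0.32 for Junb and −0.32 to 0.25 for Dusp1. In aged ICH it ranged from −0.079 to 0.14 for Arc, −0.18 to 0.39 for Fosb and −0.41 to 0.32 for Egr4. Between the sham groups it ranged from −0.67 to 0.0051 for Fos and −0.35 to 0.14 for Junb. Between the ICH groups it ranged from −0.18 to 0.55 for Egr4, −0.24 to 0.13 for Egr1, −0.24 to 0.16 for Npas4, −0.019 to 0.38 for Egr2 and −0.20 to 0.089 for Dusp1, and in the interaction from −0.010 to 0.56 for Dusp1. The adjusted *P* of Egr4 in young ICH, 0.0484, was 0.0519 with the replicate block and 0.0559 with upper-quartile factors (edgeR).

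Deviations of same-numbered libraries of the groups compared had correlations of −0.454 to 0.235, and not every library was most like the one with its own number. With 3 libraries in each group these correlations cannot decide whether same-numbered libraries were handled together. The labels do not say what the number stands for. Each group has 3 pools, and the parts of depth and of the spread between pools in what can be seen were not compared.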

Other observations

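Stress and hormone responsive genes were measured in the same libraries, where 9.89% of all genes tested rose and 9.23% fell in young ICH, and 7% rose and 6.15% fell in aged ICH. Of 7 heat shock genes, Hspb1, which encodes a small heat shock protein, rose in young ICH (log2FC 2.44, edgeR, adjusted *P* = 0.00187) and in aged ICH (2.68, edgeR, adjusted *P* = 0.00316). The inducible chaperones Hspa1a and Hspa1b, near-identical copies whose reads may be split uncertainly, rose in aged ICH (1.18 and 1.35, edgeR, adjusted *P* = 0.00856 and 0.00381). Dnajb1, Hspa8 and Hsph1, named after their values were seen, fell in young ICH and Hsph1 in aged ICH (edgeR, adjusted *P* under 0.05) without reaching the FC criterion. Of 8 glucocorticoid-induced genes 4 rose in young ICH and 3 in aged ICH. Cdkn1a, a cell cycle inhibitor, had log2FC values of 1.19 and 1.45, Pdk4, a kinase that restrains pyruvate oxidation, of 1.11 and 0.75, and Fkbp5, a chaperone of the glucocorticoid receptor, of 0.72 in young mice.

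Of 12 clock genes, Arntl (log2FC −0.36) and Npas2 (−0.45) fell in young ICH and Npas2 (−0.46) in aged ICH with edgeR, both named after their values were seen, and 0 met the DEG criteria in either.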
